A study of Mus musculus with 6 samples.

Results

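The genes described here are 10 members of the cadherin junction and of the programme of epithelial-mesenchymal transition (EMT), chosen by symbol among the 51912 Ensembl genes of a deposited RNA-seq table: the cadherins Cdh1, Cdh2 and Cdh3, the cadherin-binding catenin Ctnnd1, the intermediate filament gene Vim, and the transcription factor genes Snai1, Snai2, Zeb1, Zeb2 and Twist1. All 10 symbols matched 1 row each, and all 10 passed the filter on low counts. The cells were R1 mouse embryonic stem cells, an established line of pluripotent cells that were grown in 2iLIF medium, which holds the naive state with inhibitors of MEK and GSK3 and the cytokine LIF. They were then placed in N2B27, a serum-free medium, with 100 ng/ml FGF2. RNA was taken after 24 h (3 libraries) and 48 h (3 libraries). No genetic change separates the groups, and FGF2 and N2B27 are common to both, so the comparison is of a longer with a shorter time in the same medium; cells in 2iLIF or in N2B27 without FGF2 were not analysed here. Only 1 line is represented, and whether replicates are separate cultures is not said in the labels, so the p-values measure the spread between these libraries, which may be technical. In bulk RNA, fewer cells expressing a gene and less of its RNA per cell cannot be told apart.

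Classical cadherins are transmembrane proteins that join neighbouring cells by binding one another outside the cell, and that are tied to the actin skeleton inside it through beta-catenin and alpha-catenin. E-cadherin (Cdh1) is the main cadherin of epithelia and of naive pluripotent cells, N-cadherin (Cdh2) of neural and mesenchymal cells, and P-cadherin (Cdh3) of basal epithelia and placenta; p120-catenin (Ctnnd1) binds the tail of these proteins next to the membrane and keeps them at the cell surface. In EMT, the zinc finger factors Snail (Snai1), Slug (Snai2), Zeb1 and Zeb2 repress Cdh1 through short E-box sequences, the basic helix-loop-helix factor Twist1 promotes the same change, and cells exchange E-cadherin for N-cadherin and gain vimentin (Vim).

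The E-box letters preferred by Snail and Zeb factors, CAGGTG, were searched on both strands in the promoter windows of the members, which run from 250 bases before to 50 bases after an annotated transcript start. RefSeq windows on GRCm38.p6 were at hand for 5 of the 10 members (Ctnnd1, Snai1, Zeb2, Twist1 and Vim, 9 windows in all). The motif was found in 1 of these windows, that of Snai1, which fell between the times (values below). The windows of Ctnnd1 and Vim, which also fell, and of Zeb2 and Twist1, which rose, hold no match. The match of Snai1 lies 126 to 121 bases upstream of the start and reads CACCTG on the strand of the gene, which is CAGGTG on the other strand. Among all 32851 promoter windows of this length, 20.2% hold the motif on either strand, so a match in 1 window of 9 is a description of these letters only. The 250 bases upstream of the Snai1 start (chr2:167537945-167538194, GRCm38.p6, plus strand) are shown 5′ to 3′ with the motif in capitals.
Snai1: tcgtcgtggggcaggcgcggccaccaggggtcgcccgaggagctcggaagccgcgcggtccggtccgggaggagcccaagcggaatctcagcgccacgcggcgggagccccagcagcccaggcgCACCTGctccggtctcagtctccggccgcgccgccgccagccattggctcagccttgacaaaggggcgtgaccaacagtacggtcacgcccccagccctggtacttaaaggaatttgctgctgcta

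The 24 h libraries held 19574969 to 23133148 expected counts and the 48 h libraries 22148474 to 22733458. Markers of embryonic stem cells (Pou5f1, Sox2, Nanog, Zfp42 and Esrrb) were present in every library, with summed levels of 3770 to 3869 CPM (counts per 1000000, after scaling) at 24 h and 2186 to 2276 CPM at 48 h, all 5 of them lower at 48 h. Of the 14889 genes tested between the times, 62.8% changed (adjusted p below 0.05, quasi-likelihood test of edgeR), 30.9% upward and 31.9% downward, so a call by itself is common in this comparison. Of the members, 9 of 10 changed, 5 upward and 4 downward. The CPM of the 2 times were fully separate for 9 of 10 members and for 66.9% of all tested genes. A change of at least 2-fold was found upward for 2 members, Zeb2 and Cdh2 (4.59% of all tested genes), and downward for 0 of them (6.63% of all tested genes). The median log2 fold change of the 10 members was 0.19, or 0.11 without replicate 2 of 24 h, against -0.01 for all tested genes. All counts of the members were whole numbers, so they show no fractions of reads divided between similar genes. Whole counts cannot show that each read fitted a single gene.

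**Figure D1:**
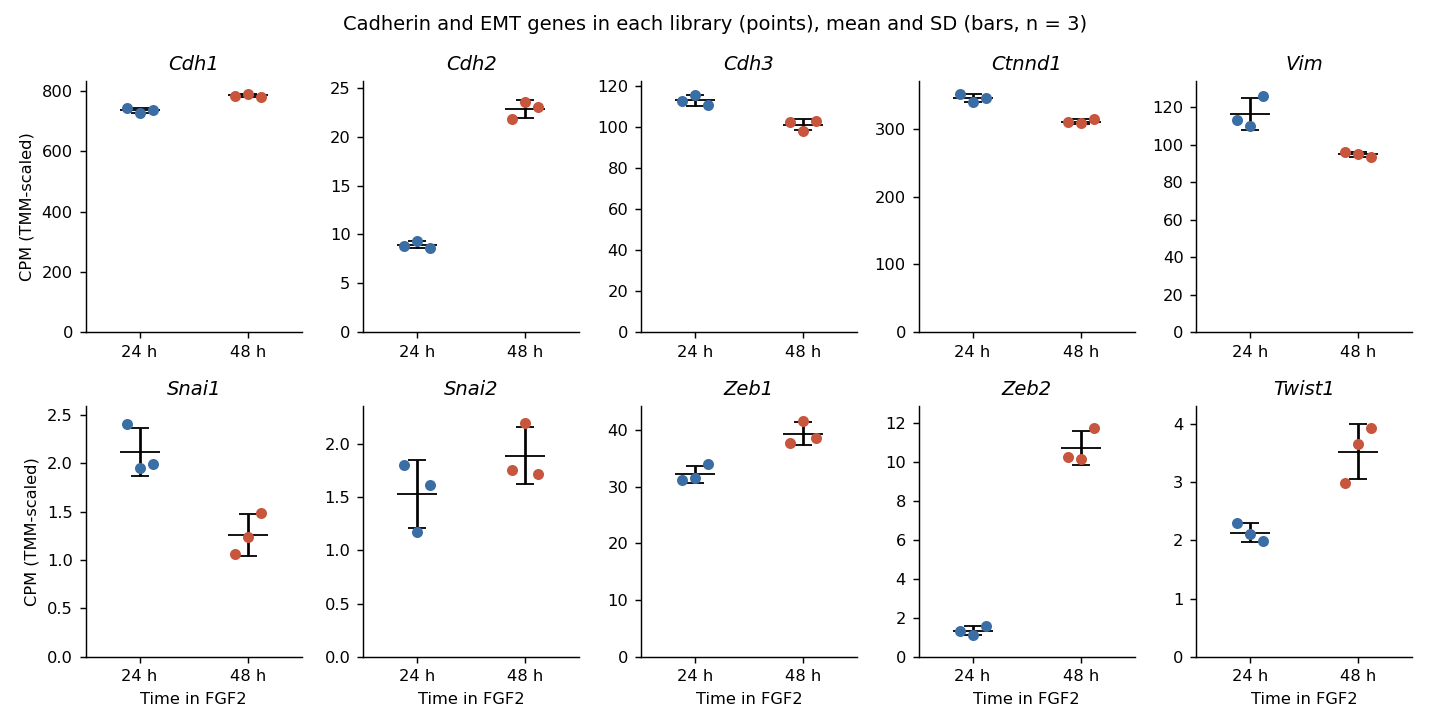
Level of each of the 10 genes in CPM (vertical axes, each from 0) at 24 h and 48 h of FGF2, with 1 point per library and the mean and SD of the 3 libraries of a time. Relative to their own levels, Zeb2 and Cdh2 show the widest gaps between the times. Cdh1 stays between 727 and 791 CPM, and Snai2 is the gene whose times overlap.

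The cadherins did not exchange places between 24 h and 48 h. Cdh2 rose 2.56-fold from a low level, Cdh3 fell slightly, and Cdh1 remained by far the most abundant of the 3 at both times. Cdh1 (ENSMUSG00000000303, chromosome 8, 106603351 to 106670246 in GRCm38) stood at 745, 727 and 738 CPM in the 24 h libraries and at 785, 791 and 781 CPM in the 48 h libraries. Every 48 h value lies above every 24 h value, but the gap is small. The mean of the 3 libraries was 736.6 ± 8.98 CPM (SD, n = 3) at 24 h and 785.5 ± 5.0 CPM at 48 h, which on the log2 scale is a change of 0.09 ± 0.016 (standard error; adjusted p = 7.95e-05). The 95% confidence interval of the fold change, from 1.04 to 1.09, lies above 1 under TMM scaling. The call depends on the scaling: with library size as the only scaling the log2 fold change was 0.03 (adjusted p = 0.0844; 3.36e-07 to 0.0844 over the 15 alternatives).

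Cdh2 (ENSMUSG00000024304) had 8.86, 9.33 and 8.60 CPM at 24 h and 21.8, 23.6 and 23.0 CPM at 48 h. The groups are well apart, and the spread within each is small beside the gap. The log2 fold change was 1.35 ± 0.07 (standard error; adjusted p = 6.83e-11), which ranked 406 among all tested genes from the largest increase. The values rest on 177 to 203 counts in the 24 h libraries and 474 to 516 in the 48 h libraries. Markers of 2 other states moved with Cdh2 and with Zeb2 (below). All 4 listed markers of formative or primed pluripotency (Fgf5, Pou3f1, Otx2 and Dnmt3b) rose, and their summed level went from 189 to 213 CPM at 24 h to 1706 to 1741 CPM at 48 h. Of the neural markers Pax6, Sox1, Neurog2, Dcx and Map2, 3 were tested and all 3 rose (Pax6, Sox1 and Map2). The summed level of these 5 genes was 28.9 to 30.4 CPM at 24 h and 75.1 to 79.2 CPM at 48 h, while Neurog2 and Dcx stayed under 1 CPM in every library. The part of either list in the rise of Cdh2 or Zeb2 was not tested.

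Cdh3 (ENSMUSG00000061048), the P-cadherin gene and the neighbour of Cdh1 on chromosome 8, had 112, 115 and 110.4 CPM at 24 h and 102, 97.9 and 103 CPM at 48 h. The 48 h libraries are all lower, and the change on the log2 scale was -0.16 ± 0.03 (standard error; adjusted p = 0.000218). Ctnnd1 (ENSMUSG00000034101), the p120-catenin gene, fell to a like extent, from 350.4, 340.04 and 345 CPM to 309, 308 and 314 CPM (log2 fold change -0.15 ± 0.02, adjusted p = 3.2e-06). A gene model named Gm28635 shares 4482 bases of exon with Ctnnd1 on the same strand in GENCODE M21 and was listed with 0 counts in all 6 libraries. Reads that fit both genes cannot be told from these counts.

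Ratios of counts within a library do not depend on how libraries are scaled, and they show the same picture. For every 100 counts of Cdh1 there were 1.19, 1.28 and 1.17 counts of Cdh2 in the 24 h libraries and 2.78, 2.98 and 2.95 in the 48 h libraries. This is a 2.40-fold higher ratio without overlap, a difference of 1.26 on the log2 scale between group means whose SDs were 0.073 at 24 h and 0.055 at 48 h. Cdh3 went the other way relative to Cdh1, from 15.1, 15.9 and 15.0 counts per 100 to 13.0, 12.4 and 13.1. Per kilobase of transcript, which allows levels of different genes to be compared, Cdh1 made up 85.8% ± 0.415 (SD, n = 3) of the sum of the 3 cadherins at 24 h and 86.5% ± 0.281 at 48 h. The share of Cdh2 was 0.951% ± 0.0437 and 2.30% ± 0.0899, and that of Cdh3 13.3% ± 0.372 and 11.2% ± 0.324. These shares use the longest transcript of each gene. With the length of all merged exons, Cdh2 was at 1.11 and 2.83 CPM per kilobase in place of 1.84 and 4.71, so its share would be smaller at both times. The gain of Cdh2 came beside a nearly constant Cdh1 share, and Cdh3 still exceeded Cdh2 at 48 h.

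**Figure D2:**
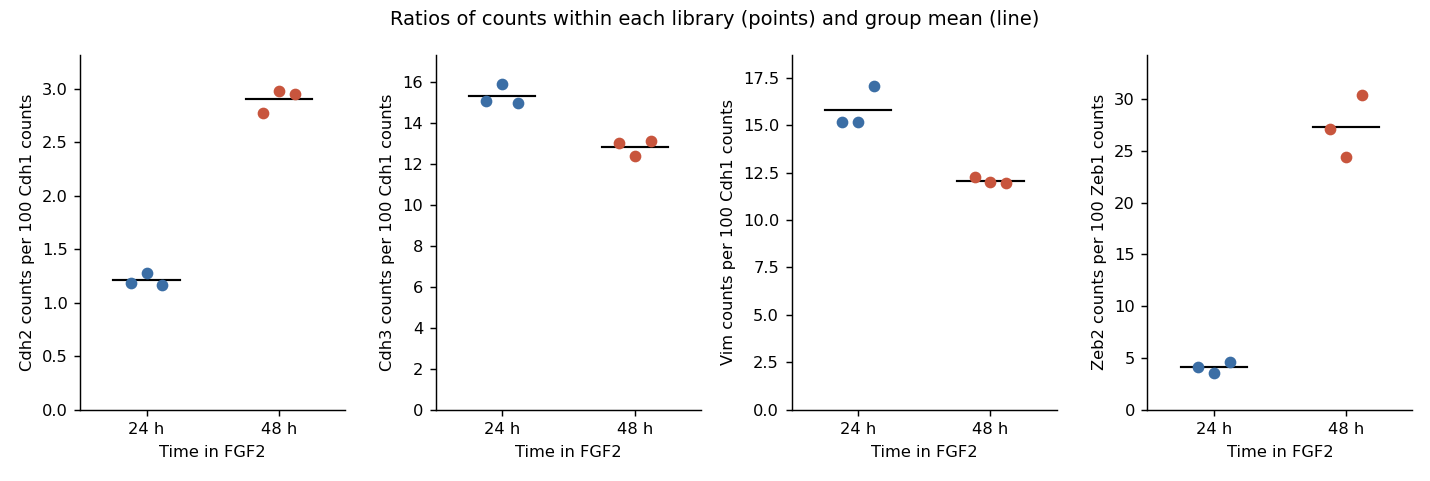
Counts of Cdh2, Cdh3 and Vim per 100 counts of Cdh1 and of Zeb2 per 100 counts of Zeb1 (vertical axes, each from 0) in each library at 24 h and 48 h, with the group mean as a line. The times do not overlap in any of the 4 ratios, with Cdh2 between 1.17 and 1.28 at 24 h and between 2.78 and 2.98 at 48 h.

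Vimentin, the filament protein used as a marker of mesenchymal cells, did not rise with Cdh2. Vim (ENSMUSG00000026728) had 113, 110.2 and 126 CPM at 24 h and 96.3, 94.9 and 93.5 CPM at 48 h. Replicate 3 stands above the other 24 h libraries, and all 48 h libraries lie below the lowest 24 h value. The log2 fold change was -0.30 ± 0.04 (standard error; adjusted p = 8.59e-06), and -0.24 at its smallest when 1 library was left out. Of another cell type that expresses Vim, fibroblasts, the 8 listed markers summed to 4.05 to 6.02 CPM at 24 h and 3.13 to 4.47 CPM at 48 h. Of these, Postn and Lum had 0 counts in all 6 libraries, and Col1a2 and Col3a1 were under 1 CPM in each. Pdgfrb fell, as did Col1a1, which passed the filter only through its 24 h libraries. Dcn, which passed the filter only through its 48 h libraries, had 0 counts in each 24 h library and 23 to 32 counts at 48 h. The part of these markers in the change of Vim was not tested.

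The transcription factors of EMT moved in different directions. Zeb2 rose nearly 8-fold, Twist1 and Zeb1 rose by less, Snai1 fell, and no change of Snai2 was detected. Zeb2 (ENSMUSG00000026872, chromosome 2, 44983632 to 45117395, minus strand), a repressor that also acts in neural and neural crest development, had 1.302, 1.12 and 1.57 CPM at 24 h and 10.2, 10.1 and 11.7 CPM at 48 h. The lowest 48 h library is several times above the highest 24 h library. The log2 fold change was 2.99 ± 0.14 (standard error; adjusted p = 9.62e-12), a 7.95-fold increase with a 95% confidence interval from 6.49 to 9.74, and it ranked 68 among the 14889 tested genes from the largest increase. It rests on 23 to 37 counts per library at 24 h and 222 to 260 at 48 h. Exons of Zeb2os and Gm27761 on the opposite strand overlap Zeb2 over 657 bases, and no source used here says if counting was stranded; Zeb2os itself had 0 counts at 24 h and 1 to 2 at 48 h, and Gm27761 had 0 throughout.

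Zeb1 (ENSMUSG00000024238), the close relative of Zeb2, started much higher and rose little, from 31.2, 31.4 and 33.9 CPM to 37.7, 41.6 and 38.6 CPM. The times do not overlap, and the change on the log2 scale was 0.29 ± 0.05 (standard error; adjusted p = 9.69e-05). For every 100 counts of Zeb1 there were 4.17, 3.57 and 4.63 counts of Zeb2 at 24 h and 27.1, 24.4 and 30.4 at 48 h, a 6.63-fold higher ratio. Per kilobase of transcript Zeb1 still exceeded Zeb2 at 48 h, with 6.77 ± 0.353 against 1.17 ± 0.098 CPM per kilobase (SD, n = 3). Gm10125, which overlaps Zeb1 on the opposite strand over 198 bases, had 0 to 3 counts in a library.

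Snai1 (ENSMUSG00000042821, chromosome 2, 167538195 to 167542814), the gene of the Snail repressor and the one whose promoter is printed above, had 2.40, 1.95 and 1.99 CPM at 24 h and 1.06, 1.23 and 1.49 CPM at 48 h. All 48 h libraries lie below the 24 h libraries. On the log2 scale the change was -0.74 ± 0.21 (standard error; adjusted p = 0.00673), and its 95% confidence interval from -1.20 to -0.28 is wide because the gene had only 40 to 48 counts per library at 24 h and 23 to 33 at 48 h. Snai2 (ENSMUSG00000022676), the gene of the related repressor Slug, had 1.80, 1.17 and 1.61 CPM at 24 h and 1.75, 2.19 and 1.71 CPM at 48 h. The groups overlap, and the log2 fold change of 0.30 did not pass the test (adjusted p = 0.248). Its 95% confidence interval, from -0.17 to 0.77, does not exclude a rise of up to 1.70-fold. The value rests on 24 to 48 counts per library, and leaving out replicate 2 gave 0.15 (that of 24 h) or 0.18 (that of 48 h).

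Twist1 (ENSMUSG00000035799), a basic helix-loop-helix factor of mesoderm and neural crest, had 2.30, 2.10 and 1.99 CPM at 24 h and 2.99, 3.66 and 3.92 CPM at 48 h. The times do not overlap, and the log2 fold change was 0.73 ± 0.16 (standard error; adjusted p = 0.00102), from 43 to 47 counts per library at 24 h and 65 to 87 at 48 h. Of 6 listed markers of the primitive streak and mesoderm, the embryonic tissue in which EMT factors act during gastrulation, only Eomes was tested. Eomes fell, from 15.3 to 17.6 CPM at 24 h to 12.5 to 14.4 CPM at 48 h, and exceeded Twist1 in every library. T, Mixl1, Mesp1, Gsc and Tbx6 were under 1 CPM in every library. The summed level of these 6 genes, most of it that of Eomes, was 15.9 to 19.0 CPM at 24 h and 12.9 to 15.0 CPM at 48 h. Any part of these markers in the rise of Twist1 was not tested.

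**Figure D3:**
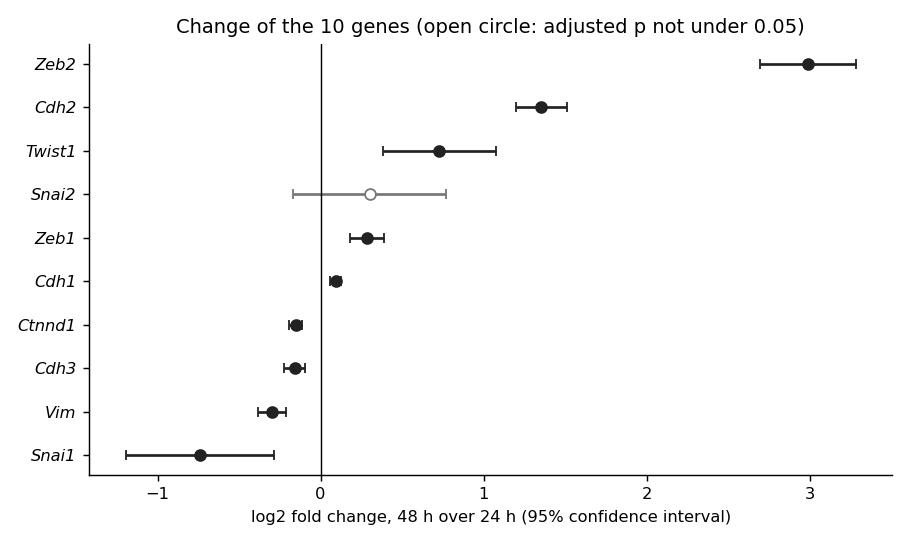
Log2 fold change of each of the 10 genes (horizontal axis, 48 h over 24 h) with its 95% confidence interval in edgeR's quasi-likelihood fit; filled circles passed an adjusted p under 0.05. Zeb2 at 2.99 and Cdh2 at 1.35 lie apart from the other genes, and the interval of Snai2 from -0.17 to 0.77 is the one that spans 0.

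Ordered by level per kilobase of transcript at 24 h, the members were Cdh1 with 166 ± 2.03 CPM per kilobase (SD, n = 3), Ctnnd1 with 54.3 ± 0.817, Vim with 39.8 ± 2.88, Cdh3 with 25.7 ± 0.59, Zeb1 with 5.55 ± 0.258, Cdh2 with 1.84 ± 0.0757, Twist1 and Snai1 with 1.31 ± 0.097 and 1.31 ± 0.154, Snai2 with 0.756 ± 0.16 and Zeb2 with 0.146 ± 0.0245. Twist1 and Snai1 did not differ beyond their spread. At 48 h the first 7 places were the same, and Zeb2 (1.17 ± 0.098) had passed Snai2 (0.933 ± 0.132) and Snai1 (0.778 ± 0.133). Snai2 and Snai1 did not differ beyond their spread. The lengths are those of the longest transcript of each gene in GENCODE M21. With the length of all merged exons, Vim (24.5 at 24 h) and Cdh3 (25.7) change places, Cdh2 (1.11) comes to lie below Twist1 and Snai1 (both 1.31) at 24 h, and Zeb2 (0.536) is the lowest at 48 h. Cdh1 was first and Ctnnd1 second with both lengths.

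The genes whose pattern over the 6 libraries was most like that of 2 of the cadherins were sought among 10421 tested genes whose mean reached 5 CPM, by the Euclidean distance of mean-centred log2 CPM. For Cdh1 they were Lrpprc (distance 0.020), Zpr1 (0.024) and Wdr26 (0.024), all with log2 fold changes of 0.08 to 0.09. For Cdh2 they were Pdzd4 (distance 0.081), G2e3 (0.096) and Sulf1 (0.10), with log2 fold changes of 1.38, 1.33 and 1.29. With libraries of only 2 times, many genes share such a pattern.

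Other genes of the junction and of EMT were followed in 9 lists, given with their counts and medians and without a test of the list. Among all 14889 tested genes 62.8% changed, 30.9% upward and 31.9% downward. The changed share of the tested genes of a list ran from 60.0% (other cadherins) to 92.3% (catenins and junction linkers). For cadherin turnover and for intermediate filaments it was 63.6%, near the share of all genes. Of 16 other cadherin genes, 5 were tested and 3 rose. Cdh9 went from 1.10 ± 0.071 to 3.52 ± 0.723 CPM (SD, n = 3; a log2 change of 1.68, adjusted p = 2.13e-06) and Cdh4, the R-cadherin gene, from 3.15 ± 0.233 to 4.41 ± 0.286 CPM (0.48, adjusted p = 0.00428). Cdh10, which passed the filter only through its 48 h libraries, had 0, 1 and 0 counts at 24 h and 52, 39 and 44 at 48 h, a ratio of 131 with a 95% counting interval from 23.2 to 5230. The median of the 5 tested genes was 0.68, 0.11 when genes with few counts were tested as well, and 0.48 (2 changed genes) with at least 10 counts in every library, which leaves out Cdh10. Cdh24, with the highest mean CPM of the list over the 6 libraries, was at 4.37 ± 0.43 and 4.39 ± 0.184 CPM, and the other 11, among them the vascular gene Cdh5 and the mesenchymal gene Cdh11, had too few counts to be tested.

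Of 14 catenins and junction linkers, 13 were tested, 4 rose and 8 fell (median -0.15). Ctnnb1 (beta-catenin), with the highest mean CPM, went up from 793.8 ± 6.86 CPM (SD, n = 3) to 900.3 ± 4.52 CPM (a log2 change of 0.18, adjusted p = 1.88e-08), while Ctnna1 (alpha-catenin) fell from 427.4 ± 5.33 to 384.4 ± 1.67 CPM (-0.15, adjusted p = 1.21e-06). Nectin3 and Afdn, a nectin adhesion receptor and its actin linker, had the largest increases at 0.64 and 0.55. Ctnna2 was under 1 CPM and passed the filter only through its 24 h libraries. Besides Ctnna2, the largest decreases were those of Ctnnd2 with -1.04 and Arvcf with -0.72, both relatives of Ctnnd1, followed by plakoglobin (Jup) with -0.68. Pkp4, another relative of Ctnnd1 in the list, was not among these. Of 11 genes of cadherin turnover all were tested, 1 rose and 6 fell (median -0.14), with Adam15 at -0.55 and the E-cadherin sheddase Adam10 at -0.39; Cbll1, a ubiquitin ligase of E-cadherin, rose by 0.10, and Rab5a, with the highest mean CPM, was at 101.6 ± 2.18 and 104.5 ± 1.97 CPM and did not pass the test (adjusted p = 0.249). Only 4 of the 11 changed in DESeq2 and 4 without replicate 2 of 24 h.

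Genes that accompany the repressors moved in both directions. Of 15 partners and relatives of Snail, Zeb and Twist, 12 were tested, 5 rose and 4 fell, with a median of 0.03, or -0.03 with library size as the only scaling and 0.14 without the filter on low counts. The co-repressor gene Ctbp2, whose protein binds Zeb factors, went up from 219.2 ± 6.21 CPM (SD, n = 3) to 321 ± 2.42 CPM (a log2 change of 0.55, adjusted p = 1.72e-12), though its counts were fractional. Tcf12, a partner of Twist factors, rose by 0.42, and the histone deacetylase gene Hdac2 fell with a value of -0.31. Suz12, a Polycomb subunit gene and the one with the highest mean CPM over the 6 libraries, went from 366.4 ± 1.53 to 329.1 ± 6.94 CPM (-0.16). Snai3 was at 2.07 ± 0.287 and 1.79 ± 0.283 CPM and did not pass the test (adjusted p = 0.395), and Scrt1, Scrt2 and Twist2 had at most 4 counts in a library.

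Regulators and structural genes of epithelia split into both directions. Of 12 epithelial transcription and splicing regulators, 10 were tested, 2 rose and 6 fell, with a median of -1.12. The genes that rose were Grhl2, a grainyhead factor that activates Cdh1 in epithelia (log2 fold change 4.13), and Esrp1, an epithelial splicing regulator, which went from 4.17 ± 0.583 to 24.2 ± 0.538 CPM (SD, n = 3; 2.54, adjusted p = 4.85e-13). Grhl3, a relative of Grhl2, went the other way with -1.70, as did Esrp2, a relative of Esrp1, with -1.25. Grhl1, a further relative of Grhl2 in the list, is not described here. Tfap2c and Elf3 had the largest decreases at -2.09 and -2.001, and Klf5, with the highest mean CPM over the 6 libraries, had -1.47. At 48 h Grhl2 was at 75.6 ± 2.01 CPM and Klf5 at 37.3 ± 1.58 CPM. These values are not per kilobase, and the longest transcript of Grhl2 (4947 bases) is longer than that of Klf5 (3352 bases). Of 25 epithelial structural genes, 23 were tested, 7 rose and 11 fell (median -0.19). Epcam, an adhesion protein of epithelia and pluripotent cells, rose from 71.3 ± 3.76 to 168.7 ± 1.71 CPM (1.24, adjusted p = 8.17e-15), and Lsr, a protein of tricellular junctions, rose by 0.77. Keratin gene Krt8 and Dsp and Dsg2, which are desmosome genes, had the largest decreases, at -1.97, -1.68 and -1.52. Another desmosome gene, Dsc2, rose by 0.73 from a low level, from 0.818 ± 0.12 to 1.35 ± 0.334 CPM (adjusted p = 0.0314). Tjp1 (ZO-1), with the highest mean CPM of the list, rose by 0.26.

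Of 25 mesenchymal genes, 14 had enough counts to be tested. Of these 1 rose, 10 fell and 3 did not pass the test (median -0.67), where 31.9% of all tested genes fell; the list was not tested as a set. Fibronectin (Fn1), with the highest mean CPM, went from 1161 ± 20.8 to 699.9 ± 10.2 CPM (SD, n = 3; -0.73, adjusted p = 1.73e-15). Pdgfrb and Col1a1 had the largest decreases at -1.80 and -1.76, and the matrix protein gene Sparc fell with -1.30. Col1a1 passed the filter only through its 24 h libraries, with 16, 21 and 30 counts there and 4, 9 and 7 at 48 h. Mmp2, a matrix metalloprotease, was the gene that rose (0.61). Smooth muscle actin (Acta2) had at most 2 counts and S100a4 had 0 counts in every library, and the other untested genes had at most 11 counts. Beside Vim, 11 of 12 intermediate filament genes were tested, 3 rose and 4 fell (median 0.15, or 0.07 without replicate 2 of 24 h), and 4 of them changed in DESeq2. Ina, the neuronal alpha-internexin gene, rose by 1.83, Lmna (lamin A/C) fell with -1.004, and Lmnb1, with the highest mean CPM, rose by 0.19.

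Genes of the TGF-beta pathway, a known inducer of EMT, were the last list. Of 10, 9 were tested, 3 rose and 5 fell, with a median of -0.27, which was -0.59 without the filter on low counts and -0.14 (7 changed genes) with at least 10 counts in every library. The receptor gene Tgfbr2, which passed the filter only through its 24 h libraries, had 34, 37 and 51 counts there and 3, 7 and 1 counts at 48 h. The ligand gene Tgfb1 fell from 9.77 ± 0.486 to 3.44 ± 0.349 CPM (SD, n = 3; -1.51). The feedback inhibitors parted: Smad7 had -1.33, and Skil, which encodes SnoN, rose from 93.6 ± 5.62 to 272.5 ± 2.45 CPM (1.54, adjusted p = 3.88e-16). Of the genes named from these lists, Cdh9, Ctnnb1, Ctnna1, Arvcf, Afdn, Cbll1, Rab5a, Adam15, Suz12, Twist2, Grhl2, Esrp1, Esrp2, Elf3, Krt8, Dsp, Dsg2, Lsr, Fn1 and Ina have exons that overlap an antisense gene of GENCODE M21, whose reads they may hold unless counting was stranded.

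**Figure D4:**
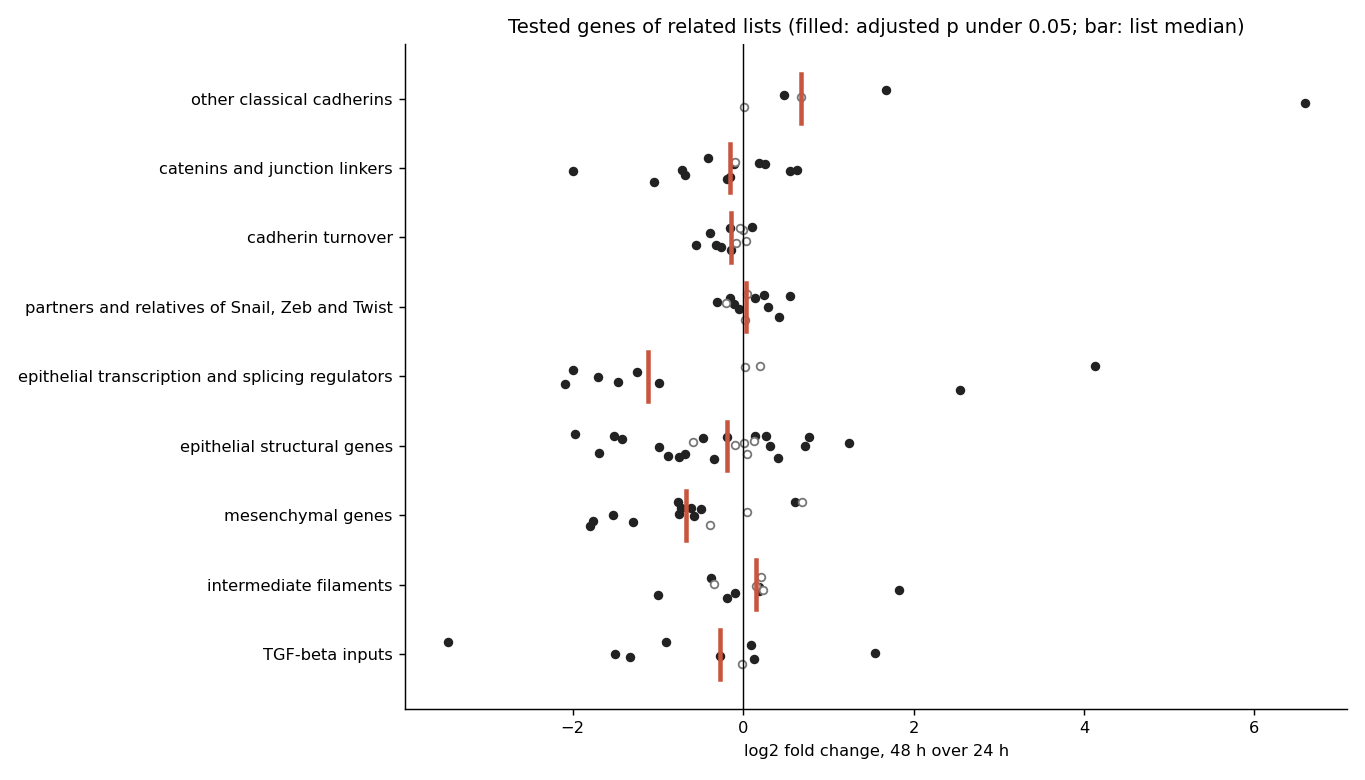
Log2 fold change (horizontal axis, 48 h over 24 h) of each tested gene of the 9 lists, filled where the adjusted p was under 0.05 in edgeR's quasi-likelihood fit, with the list median as a bar. Medians lie between -1.12 for the epithelial regulators and 0.68 for the other cadherins, and most lists hold genes of both directions.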

How the data were processed

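The data are a table that the authors deposited with expected counts per gene for 6 messenger RNA libraries (KAPA mRNA HyperPrep, per the labels' protocols). Cutadapt 1.9.1, STAR 2.5.2, RSEM 1.3.0 and GRCm38 are named in the submitters' processing notes; annotation release, strand setting and filters are not given in the sources used here. RSEM divides reads that fit several genes, so expected counts need not be whole. Columns matched sample titles, with 0 left over. Symbols from GENCODE M21 matched 51633 of 51912 identifiers.

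Expected counts were rounded, genes kept by filterByExpr (minimum count 10), scaled by TMM and tested with edgeR 4.0.16 (glmQLFit, glmQLFTest, R 4.3.3), the group being its single term, and Benjamini-Hochberg adjustment over all 14889 tested genes. Changed means an adjusted p under 0.05. Standard errors are the log2 fold change divided by the square root of F. The log2 CPM used for likeness had a prior count of 2. CPM refers to TMM-scaled totals. The fit was checked on simulated counts in which far fewer genes changed than in the data. Of log2 changes of 0.25 and 1 set there, 51% and 84% were called, and 10 of 162 calls fell on unchanged genes. With so few changed genes, the check cannot show how scaling acts where most genes change.

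The members and lists were chosen with earlier results of these data known. All members are named; from a list, the changed genes with the largest changes and the gene with the highest mean CPM over the 6 libraries. Others named, such as relatives of members, untested genes and Snai3, Grhl3 and Esrp2, were chosen after their values were seen. A gene of a marker list is not reported here. Alternatives were RLE, upper quartile and library size scaling, other filters, DESeq2 1.42.0, limma voom 3.58.1, unrounded counts, a replicate block and leaving out each library.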

Additional observations from a re-analysis of the deposited data

How the results depend on the processing

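Of the 10 members' fold changes under 15 alternatives, 149 values kept direction and call and 1 did not: Cdh1 lost its call with library size as the only scaling (0.032, adjusted p = 0.0844). Under the replicate block the count of changed genes was 9235, of which 9138 also changed without a block, and no member's call differed. Deviations of same-numbered libraries from their group means had correlations of -0.046, -0.043 and -0.0085 over genes, and no library correlated best with its own number. These values show no pairing by number, but ones this small cannot exclude a culture or batch shared by same-numbered libraries. The count of 9345 changed genes stayed within 1.5 times in every alternative run, from 7810 at an adjusted p under 0.01 to 9792 without a filter. The difference in the log2 ratio of Cdh2 to Cdh1 ranged from 1.23 to 1.302 when 1 library was left out. List medians moved more, and where the set of tested genes did not change the cause was not tested. With library size only they were 0.13 (members), -0.21 (catenins), -0.20 (turnover), -0.026 (partners, reversed from 0.034), -0.25 (epithelial structure), -0.73 (mesenchymal), 0.092 (filaments) and -0.33 (TGF-beta); this scaling moved the median of all genes from -0.01 to -0.07. Without a filter, which adds low genes, they were 0.11 (other cadherins), -0.17 (catenins), 0.14 (partners), -0.60 (mesenchymal), 0.11 (filaments) and -0.59 (TGF-beta). With at least 10 counts in every library they were 0.48 (other cadherins), -0.13 (catenins), -0.14 (epithelial structure) and -0.14 (TGF-beta). DESeq2 called 4 turnover and 4 filament genes. Leaving out 1 library gave medians from 0.11 to 0.21 (members), 0.48 to 0.90 (other cadherins), -0.16 to -0.14 (catenins), -0.73 to -0.66 (mesenchymal) and 0.069 to 0.18 (filaments), and 4 to 7 changed turnover genes. Depth limits Snai1, Snai2 and Twist1, which had at most 87 counts in a library.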
